A study of Mus musculus with 33 samples.

Results

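The transcripts described here are 10 genes of the lysosomal proteases and their inhibitors, measured in the CA1 field of the mouse hippocampus: the cathepsins Ctsb, Ctsd, Ctsz, Ctss, Ctsl, Ctsh and Ctsa, legumain (Lgmn), and the cystatins Cst3 and Cstb. They were chosen by name from these families with earlier results of these data known, and they are not the whole families. Other cathepsins and cystatins are described further below. All 10 were found among 38355 genes with read counts and among 40678 loci with FPKM, the fragments scaled to transcript length and library size. All 10 passed the filters on low values in both tables, so none dropped out of a test.

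Cathepsins are proteases that work in the acid interior of endosomes and lysosomes, where they break down proteins taken up from outside or delivered by autophagy. Most are cysteine proteases, whereas cathepsin D is an aspartic protease and cathepsin A a serine carboxypeptidase. Legumain, an asparaginyl endopeptidase, also trims some cathepsins to their mature forms. Cystatins are inhibitors of cysteine proteases, and so not of cathepsins D and A. Cystatin C, the product of Cst3, is secreted and abundant in the brain, and cystatin B, the product of Cstb, stays inside cells. Microglia, the resident phagocytes of the brain, are rich in these proteases, and neurons and astrocytes hold several of them too.

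The study asked how the compound JQ1 acts on the brain. JQ1 blocks the bromodomains with which BET proteins bind acetylated histones. Counts came from APP mice aged 8 to 10 months given JQ1 at 50 mg per kg i.p. over 10 days (6 mice), from APP mice given the vehicle, 10% DMSO, for the same time (6 mice), and from WT mice given that vehicle (4 mice with values of 5 labelled). FPKM came from C57B/6JRj WT mice of 3 months given JQ1 at 50 mg per kg (8 mice) or the 10% DMSO vehicle (8 mice) for 13 days. The APP mice are a transgenic line on a C57B/6 background, whose transgenes, mutant human APP among them, are driven by the Thy1 promoter and hence expressed in neurons.

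The aged WT mice have the transgenic line written in their strain label although their titles say WT. By the methods the mice of that age in behavioral tests were females and the young mice were males, and tissue was taken a day after the last water maze test. Each sample is thus a mouse that had been trained, and the aged and young mice differ in genotype, age, sex, length of treatment and unit of measurement.

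One aged library went against its label. App and Thy1 serve as a check of the genotype, and in the library labelled APP JQ1 replicate 4 they stood at 1781 and 819.8 CPM, reads scaled to library size, while the other 11 APP libraries were at or above 2070 and 1618 CPM. WT libraries lay at 1853 to 1992 CPM for App and 840.6 to 1070 CPM for Thy1, so this library sat just under the WT range for both genes. The members' results are therefore given with and without it. Between 14605459 and 25339482 reads fell on genes in the aged libraries, and 3 reads, the smallest level taken as detectable, equal 0.118 to 0.205 CPM. Reads outside genes made up a median of 21.4% in APP JQ1, 18.6% in APP vehicle and 18.0% in WT vehicle libraries. WT vehicle replicate 4 held choroid plexus RNA, with 3188 CPM summed over 6 markers against 24.6 to 142.8 CPM in the other 15 aged libraries.

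Some promoters of these genes hold short sequences that regulators of lysosomal and myeloid genes are known to bind, and 4 windows are shown because such a sequence lies within the bases printed. Sequences 250 bases before to 50 bases after a start site came from RefSeq on GRCm38.p6, where 7 of the 10 members had an entry, Ctsa and Lgmn with 2 starts each (9 windows). Each line gives 180 bases before the start and 20 from it on, with the strand of the gene as the strand read. For Ctsd (chr7:142387808-142388007, minus strand) and the downstream start of Ctsa (chr2:164833593-164833792, plus strand) the capitals mark TCACGTGA, the core of the element bound by TFEB. For the downstream start of Lgmn (chr12:102439073-102439272, minus strand) they mark the plain E-box CACGTG. For Ctss (chr3:95526606-95526805, plus strand) they mark GAGGAA or its reverse complement TTCCTC, the purine-rich core recognised by PU.1 of myeloid cells.
Ctsd: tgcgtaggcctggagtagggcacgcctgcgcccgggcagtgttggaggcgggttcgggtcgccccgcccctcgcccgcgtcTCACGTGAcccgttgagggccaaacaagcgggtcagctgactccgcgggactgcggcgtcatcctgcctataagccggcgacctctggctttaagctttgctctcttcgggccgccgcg
Ctsa: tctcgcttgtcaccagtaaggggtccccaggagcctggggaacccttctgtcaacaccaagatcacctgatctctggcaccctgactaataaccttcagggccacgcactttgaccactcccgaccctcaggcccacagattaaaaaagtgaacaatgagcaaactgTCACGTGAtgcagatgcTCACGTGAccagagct
Lgmn: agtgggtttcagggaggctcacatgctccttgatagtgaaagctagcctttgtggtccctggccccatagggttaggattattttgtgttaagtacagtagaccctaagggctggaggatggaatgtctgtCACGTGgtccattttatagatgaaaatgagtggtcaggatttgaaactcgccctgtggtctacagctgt
Ctss: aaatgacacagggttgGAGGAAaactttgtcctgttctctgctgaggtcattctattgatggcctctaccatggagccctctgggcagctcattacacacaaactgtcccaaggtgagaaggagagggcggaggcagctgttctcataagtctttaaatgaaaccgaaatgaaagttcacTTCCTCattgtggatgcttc

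Counted with the start base as 0, TCACGTGA began at -99 in Ctsd and at -13 and 4 in Ctsa. Of all 32851 promoter windows of 300 bases, 0.974% hold it on either strand (it is its own reverse complement). CACGTG, which lies inside TCACGTGA, was found in 7.15% of all windows, and among the members in Ctsd, the downstream starts of Ctsa and Lgmn and, at -236, Ctsl. GAGGAA on either strand was in 28.3% of all windows, and in those of Ctss (at -164 and 0) and Cst3 (at -230). Ctsz and the upstream starts of Ctsa and Lgmn held none of these letters in their windows. Such matches are descriptions of the letters only.

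The first comparison, APP against WT mice that both had vehicle, asks what the transgenes change. In the edgeR quasi-likelihood test 8 of the 10 members were called higher and none lower, with adjusted p-values from 0.00828 to 0.0358, against 2.57% of the 16962 genes tested called in either direction and 2.49% called higher. The median log2 fold change of the 10 was 0.72, against 0.01 over all genes tested. Groups did not overlap, with APP vehicle higher, for 8 of 10 members (4.94% of all genes tested). For groups that do not overlap the exact two-sided permutation test always gives 0.00952, the smallest p that 6 samples against 4 allow. It therefore adds nothing to the lack of overlap. The members split by size of change: Ctss, Ctsz, Ctsd and Ctsh were higher by 3.04- to 4.80-fold, and Cst3, Ctsa, Lgmn and Ctsb by 1.5- to 1.72-fold. DESeq2 called 9 members higher, against 4.3% of the genes it tested. Without the library labelled APP JQ1 replicate 4, which enters here only through the shared estimate of spread, 9 were called higher, against 3.55% of 16948 genes in either direction and 3.32% higher. Without WT vehicle replicate 3, 4 or 5, respectively 3, 4 and 4 members were called, against 1.07%, 1.41% and 1.24% of all genes tested.

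Positions of the genes are given on mm10. Among the cysteine cathepsins, Ctss (chromosome 3, 95526786 to 95556403), which stays active at neutral pH and cuts the invariant chain of MHC class II, had 65.0, 72.6, 73.1 and 80.7 CPM in the WT vehicle libraries. In APP vehicle mice the lowest, median and highest levels were 200.1, 357.2 and 477.8 CPM. Every APP vehicle library thus exceeded every WT library, with a log2 fold change of 2.26 (SE 0.40, adjusted p = 0.00922, edgeR).

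Ctsz (chromosome 2, 174427493 to 174439039), a carboxypeptidase with an integrin-binding motif in its propeptide, stood at 29.5, 39.0, 41.4 and 42.2 CPM in WT mice. It stood at 89.0, 149.3 and 171.7 CPM (lowest, median, highest) in APP vehicle mice, with no overlap and a log2 fold change of 1.91 (SE 0.34, adjusted p = 0.00878, edgeR). Ctsh (chromosome 9, 90054152 to 90076089), an aminopeptidase of the same family, was measured at 12.3, 12.9, 13.3 and 20.7 CPM in WT mice, of which the highest, replicate 1, lay apart. APP vehicle mice had 22.1, 42.4 and 63.2 CPM of it, so the lowest of them came close to that WT mouse, and the log2 fold change was 1.61 (SE 0.32, adjusted p = 0.0129, edgeR).

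Ctsb (chromosome 14, 63122462 to 63145923), a cysteine cathepsin with both endopeptidase and peptidyl-dipeptidase activity, had 639.2, 643.7, 661.6 and 730.0 CPM in WT mice. In APP vehicle mice it had 790.2, 992.6 and 1210 CPM (lowest, median, highest). The groups did not overlap, and the log2 fold change was 0.58 (SE 0.14, adjusted p = 0.0295, edgeR). Ctsl (chromosome 13, 64359337 to 64370890), an endopeptidase of broad specificity, had 88.8, 97.5, 108.5 and 131.2 CPM in WT mice and 119.8, 163.1 and 198.7 CPM in APP vehicle mice. Here 5 of 6 APP vehicle mice lay above all WT mice, and a log2 fold change of 0.59 (SE 0.17) did not pass the threshold (adjusted p = 0.0830, edgeR). The estimate of Ctsl was about that of Ctsb but with a wider spread, and Ctsl passed without the library labelled APP JQ1 replicate 4 (log2 fold change 0.58, adjusted p = 0.0447, edgeR).

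Ctsd, the aspartic protease (chromosome 7, 142375911 to 142388038), had the smallest coefficient of variation of the members in WT mice (5.36%). Its WT levels were 360.1, 391.5, 395.9 and 409.4 CPM, and the lowest, median and highest levels in APP vehicle mice were 836.8, 1314 and 1581 CPM. The log2 fold change was 1.72 (SE 0.29, adjusted p = 0.00828, edgeR). Ctsa (chromosome 2, 164832873 to 164841032), the serine carboxypeptidase that also shields beta-galactosidase and neuraminidase in a complex, had 109.9, 128.8, 133.6 and 139.7 CPM in WT mice. In APP vehicle mice it had 176.0, 196.6 and 236.3 CPM, without overlap (log2 fold change 0.67, SE 0.16, adjusted p = 0.0358, edgeR).

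Legumain, encoded by Lgmn (chromosome 12, 102394084 to 102439813), was at 102.2, 109.3, 109.3 and 126.9 CPM in WT mice and at 147.6, 172.2 and 208.1 CPM in APP vehicle mice. These groups did not overlap either (log2 fold change 0.64, SE 0.13, adjusted p = 0.0103, edgeR).

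The inhibitors went apart from each other. Cst3 (chromosome 2, 148871722 to 148875692) was at 1122, 1142, 1162 and 1362 CPM in WT mice and at 1611, 2178 and 2384 CPM in APP vehicle mice, a log2 fold change of 0.78 (SE 0.16, adjusted p = 0.0118, edgeR) without overlap. Cstb (chromosome 10, 78425669 to 78427622) was at 19.6, 21.8, 23.7 and 39.6 CPM in WT mice and at 20.7, 29.2 and 42.8 CPM in APP vehicle mice. Those groups overlapped widely, and its log2 fold change of 0.20 had a 95% interval from -0.27 to 0.67 (adjusted p = 0.741, edgeR). No test of the difference between the changes of Cst3 and Cstb was made.

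**Figure D1:**
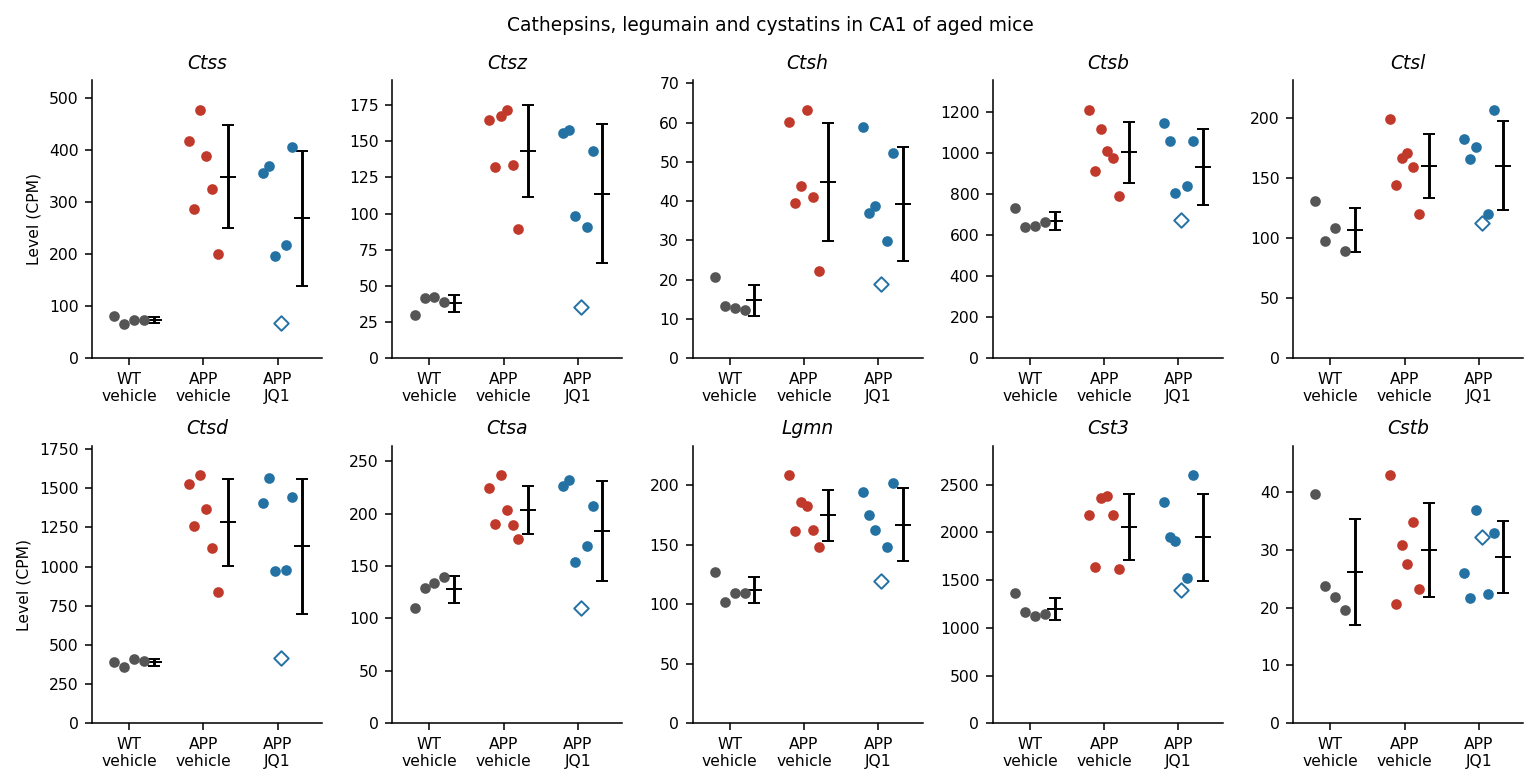
Level of each member in CPM (y axis, from 0) in every aged library of the WT vehicle (grey, 4), APP vehicle (red, 6) and APP JQ1 (blue, 6) groups, with bars at the mean ± SD. The open diamond is the library labelled APP JQ1 replicate 4, which lies among the WT libraries for Ctss (67.5 CPM) and Ctsz (35.1 CPM) and just above the highest of them for Ctsd (415.6 against 409.4 CPM).

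Markers of microglia moved with these genes. Of 15 markers, 10 were called higher in APP vehicle than in WT vehicle mice and none lower, against 2.49% of all genes tested called higher. The summed level of the 15 was 410.9 to 469.6 CPM in WT and 931.9 to 1849 CPM in APP vehicle libraries. Leaving out the library labelled APP JQ1 replicate 4 (445.2 CPM), it was 998.1 to 1700 CPM in APP JQ1 libraries. Defining markers such as Cx3cr1 (94.1 ± 8.37 against 41.5 ± 4.59 CPM, SD, n = 6 and 4), which was among those called, were present in every group. The markers not called in APP vehicle against WT vehicle mice were P2ry12, P2ry13, Tmem119, Aif1 and Fcrls (edgeR, all libraries). In bulk tissue, more cells of a type and more RNA per cell cannot be told apart.

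Set against the summed microglia markers of the same library, the members fell into separate patterns. Ctsd, Ctsz and Ctsh kept nearly the same ratio to the markers, with mean log2 ratios that differed by -0.02, 0.19 and -0.14 between APP vehicle and WT vehicle mice and ranges that overlapped. Ctss was higher relative to the markers in APP vehicle mice, with a difference of 0.51 on the log2 scale and no overlap. Ctsb, Ctsl, Ctsa, Lgmn, Cst3 and Cstb were all lower relative to the markers in APP vehicle mice, with differences of -1.13, -1.12, -1.04, -1.07, -0.94 and -1.50, and none of these 6 overlapped. These ratios are a description without a test, and the markers themselves are transcripts that can change within a cell. The sum gives most weight to the most abundant markers. The median log2 fold change of the 15 single markers was 1.18, below those of Ctsd (1.72), Ctsz (1.91) and Ctsh (1.61). The patterns thus hold for the summed level and may differ for single markers.

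**Figure D2:**
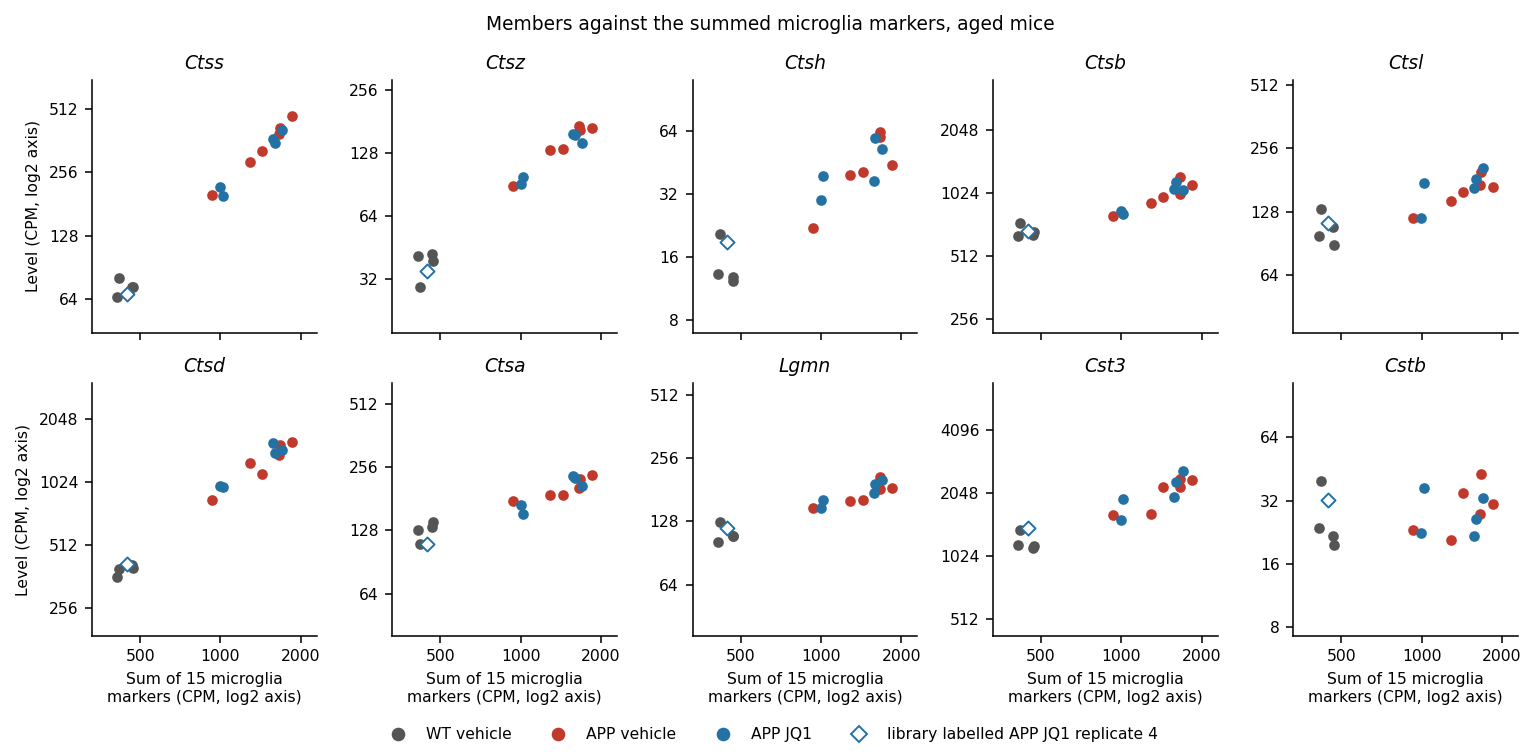
Level of each member in CPM (y axis, log2 scale) against the sum of 15 microglia markers in CPM (x axis, log2 scale), with 1 point per aged library (WT vehicle grey, APP vehicle red, APP JQ1 blue, the library labelled APP JQ1 replicate 4 as an open diamond). Every y axis spans the same fold range, so that the slopes can be compared: Ctss, Ctsz and Ctsd climb steeply, Ctsb, Ctsa and Lgmn less so, and Cstb shows no clear slope.

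Astrocyte markers also moved: 2 of 9 (Gfap and Sox9) were called higher in APP vehicle mice, against 2.49% of all genes tested. The sum of the 9 went from 4430 to 4815 CPM in WT to 6635 to 9526 CPM in APP vehicle mice. No marker of perivascular macrophages, oligodendrocytes, their precursors, endothelial or mural cells, choroid plexus or ependyma was called in any aged comparison (edgeR). The same held for markers of CA1 pyramidal neurons, neurons in general, dentate gyrus, and CA2 and CA3. The study's own analysis listed Wfs1, a CA1 marker here, as lower with JQ1 in APP mice. The part of any cell type in the results of the members was not tested.

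The next comparison, JQ1 against vehicle in APP mice, asks what the inhibitor changes in diseased tissue. None of the 10 members was called, against 1.08% of 16962 genes tested in either direction, and none had an unadjusted p under 0.05 (edgeR), against 17.6% of all genes. No member was called with DESeq2 either, which called 5.24% of the genes it tested. Log2 fold changes ran from -0.38 (Ctss) to 0.0032 (Ctsl) with a median of -0.13, against 0.00 over all genes tested, and 9 of 10 were below 0. Without the library labelled APP JQ1 replicate 4 none was called either (0.431% of 16948 genes were), no member's groups were separated in either fit (2.03% of all genes tested, and 2.24% without that library), and the range narrowed to between -0.17 (Ctss) and 0.09 (Ctsl), with a median of -0.03.

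Ctss in the APP JQ1 libraries was at 67.5, 286.6 and 407.4 CPM (lowest, median, highest), or from 197.3 to 407.4 CPM without the library labelled replicate 4, next to 200.1 to 477.8 CPM with vehicle. These ranges overlapped over most of their extent. Its 95% interval ran from -1.08 to 0.33 with all libraries and from -0.63 to 0.29 without that library. Ctsz had an interval from -0.93 to 0.27, and from -0.52 to 0.23 without that library.

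Ctsd was at 415.6, 1192 and 1564 CPM with JQ1 (972.0 to 1564 CPM without the library labelled replicate 4), against 836.8 to 1581 CPM with vehicle. Its log2 fold change of -0.18 (SE 0.24, adjusted p = 0.742, edgeR) became -0.0061 (SE 0.15, adjusted p = 0.992, edgeR) without that library, with a 95% interval from -0.33 to 0.32. For Ctsd the 5 remaining JQ1 libraries were therefore spread over the same levels as the vehicle libraries.

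Narrower limits than those of Ctss, Ctsz and Ctsd (-0.69 to 0.33 for Ctsd with all libraries) held for the other members except Ctsh. The interval of Ctsh was wider than that of Ctsd. Lgmn was at 119.3, 168.7 and 202.0 CPM with JQ1, with an interval from -0.31 to 0.17, and Ctsb at 675.1, 948.0 and 1149 CPM, with an interval from -0.37 to 0.15. Ctsa (-0.45 to 0.15), Cst3 (-0.37 to 0.22), Ctsl (-0.31 to 0.32), Cstb (-0.48 to 0.35) and Ctsh (-0.77 to 0.38) all had intervals that include 0. Levels of Cst3 were 1401, 1931 and 2596 CPM (lowest, median, highest), and those of Cstb 21.6, 29.2 and 36.9 CPM. Within the JQ1 group, replicates 3 and 5 were lower than replicates 1, 2 and 6 for Ctss, Ctsz and Ctsd, and APP vehicle replicate 6 was the lowest of its group for 9 of 10 members. None of the 15 microglia markers was called in this comparison either (edgeR). The study's own analysis listed Fcrls, which is among them, as lower with JQ1 in APP mice.

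The comparison of JQ1-treated APP mice with vehicle-treated WT mice shares its APP JQ1 libraries with the comparison above and its WT libraries with the first, so these are not independent. Here 6 of 10 members were called higher and none lower (edgeR), against 2.06% of 16962 genes in either direction and 1.93% higher, with a median log2 fold change of 0.65 against 0.00 over all genes tested. Without the library labelled APP JQ1 replicate 4, 9 of 10 were called higher, against 3.6% of 16948 genes higher, and the median was 0.72 (3.84% of those genes were called in either direction). In the edgeR fit without that library Cstb was the member not called (log2 fold change 0.09, adjusted p = 0.905, edgeR). With all libraries, DESeq2 called 8 members (4.43% of the genes it tested), a fit without the filter on low counts 3 (0.86%), a fit of the 2 groups alone 2 (1.39%) and a fit with the share of reads outside genes as a covariate 0 (0.66%).

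Ctss was higher by 1.88 on the log2 scale with all libraries (SE 0.40, adjusted p = 0.0247, edgeR) and by 2.08 without that library (SE 0.25, adjusted p = 0.000117, edgeR). The other members with large changes were Ctsz (1.58 and 1.76 without that library), Ctsd (1.54 and 1.70) and Ctsh (1.42 and 1.55), each called in both fits. Cst3 (0.70 and 0.78) and Lgmn (0.58 and 0.65) were also called in both. Ctsb (0.48 and 0.55), Ctsl (0.59 and 0.67) and Ctsa (0.52 and 0.62) were not called with all libraries, with adjusted p-values of 0.0876, 0.0837 and 0.123 (edgeR), and were called without that library, with 0.0163, 0.0206 and 0.00634.

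With all libraries the groups did not overlap for 2 members, Ctsd and Cst3 (2.55% of all genes tested, APP JQ1 higher). Without the library labelled APP JQ1 replicate 4 they did not overlap for 8 (5.88% of all genes tested, APP JQ1 higher), all but Ctsl and Cstb. That library was at or below the highest WT level for 8 of 10 members. Leaving out WT vehicle replicate 3, 4 or 5 left 0 members called, against 0.144%, 0.174% and 0.0637% of all genes tested. Leaving out APP JQ1 replicate 1 or 2 left 1 (1.17% and 1.08% of all genes), and leaving out APP JQ1 replicate 6 or WT vehicle replicate 1 left 2 (1.31% and 0.883%). Microglia markers moved here too, with 8 of 15 called higher with all libraries and 13 without the library labelled APP JQ1 replicate 4. Astrocyte markers did as well, with 4 of 9 and 5 of 9. Over all genes tested, 1.93% and 3.6% were called higher in these fits. The part of these markers in the results of the members was not tested.

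**Figure D3:**
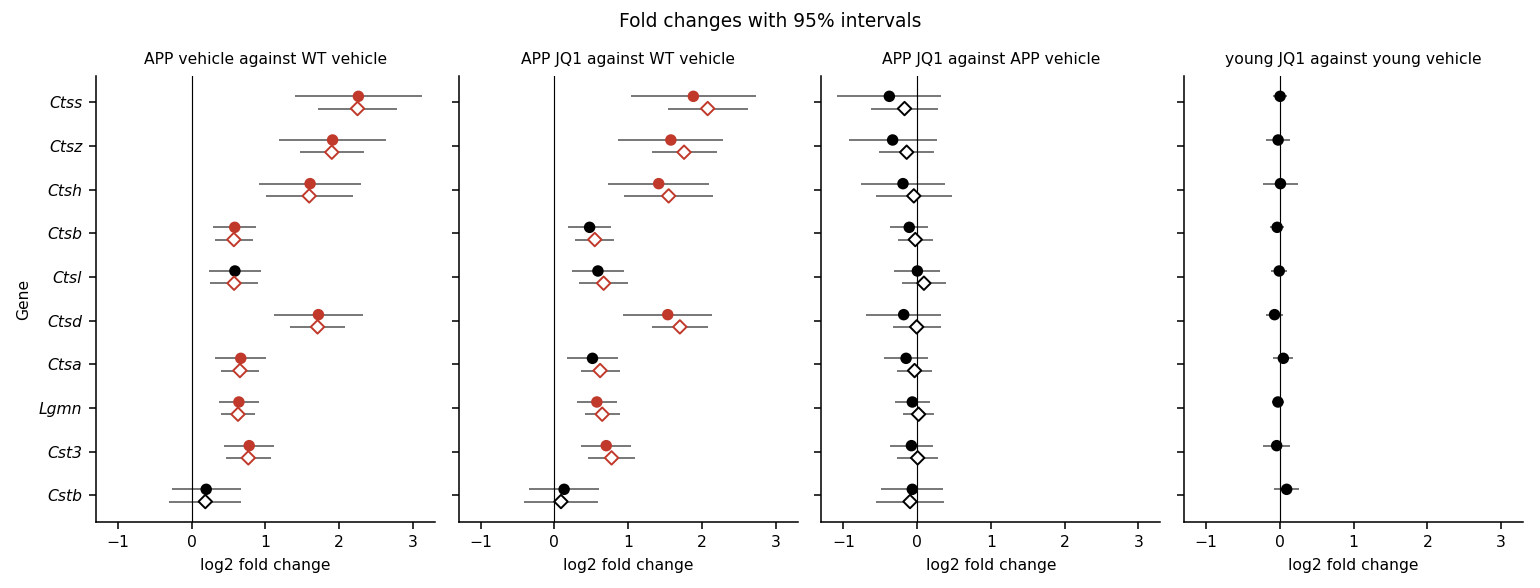
Log2 fold change of each member (x axis) with its 95% interval in the 4 comparisons, from edgeR for the aged mice and limma for the young mice. Filled circles use all libraries, open diamonds leave out the library labelled APP JQ1 replicate 4, and red marks an adjusted p under 0.05. Changes against WT lie between 0.09 and 2.26, and those with JQ1 lie around 0 in both experiments.

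In young WT mice, JQ1 against vehicle asks for the effect in healthy tissue. None of the 10 members was called by limma on log2(FPKM + 0.1), against 0.00543% of 18420 loci tested in either direction, and none had an unadjusted p under 0.05, against 4.65% of all loci. Log2 fold changes, on a scale that slightly understates those of low genes, ran from -0.07 (Ctsd) to 0.09 (Cstb), with a median of -0.02 against 0.00 over all loci. The widest interval, of Ctsh, ran from -0.23 to 0.25, and the widest bound of any member was 0.26 (Cstb), so changes above about 1.2-fold are outside every interval.

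FPKM are set to transcript length, so levels can be ordered between genes here, in the 8 vehicle mice. The loci of Ctsd, Ctsb, Ctsa, Lgmn and Ctsz span other genes too, so their places hold for the locus and not surely for the member alone. Cst3 led with 1304 ± 220 FPKM (SD, n = 8), above 99.9% of all loci. Ctsd followed with 180.5 ± 11.7 FPKM, then Ctsb with 142.2 ± 7.0 FPKM, Ctsa with 67.5 ± 5.83 FPKM and Lgmn with 45.3 ± 1.30 FPKM. Ctsl (41.1 ± 2.62 FPKM) overlapped with Lgmn above it and with Ctss (37.7 ± 1.14 FPKM) below it, so its place between them is not fixed beyond their spread, while Lgmn and Ctss did not overlap. Cstb (27.5 ± 2.75 FPKM), Ctsz (17.9 ± 1.67 FPKM) and Ctsh (7.18 ± 1.40 FPKM) closed the order without overlap.

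With JQ1 the levels in young mice lay in the same ranges. Cst3 was at 1131, 1222 and 1793 FPKM (lowest, median, highest) with vehicle and at 1100, 1237 and 1460 FPKM with JQ1. Ctsd was at 164.8, 179.5 and 200.5 FPKM with vehicle and at 157.9, 172.7 and 202.8 FPKM with JQ1, and Ctss at 36.8, 37.3 and 40.1 FPKM against 32.4, 37.8 and 42.8 FPKM. The groups overlapped for every member (0.0271% of loci were separated in either direction), and the spread of Ctss in JQ1 mice (SD 3.05 FPKM) was wider than in vehicle mice (SD 1.14 FPKM). The loci behind some of these values reach beyond the member: Ctsd is joined with Ifitm10 in 1 locus, and those of Ctsb, Ctsz, Ctsa and Lgmn span Fdft1, Nelfcd, Pltp with 4 more genes, and Rin3. Whether the JQ1 effect differs between APP and young mice was not tested, because the units differ.

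**Figure D4:**
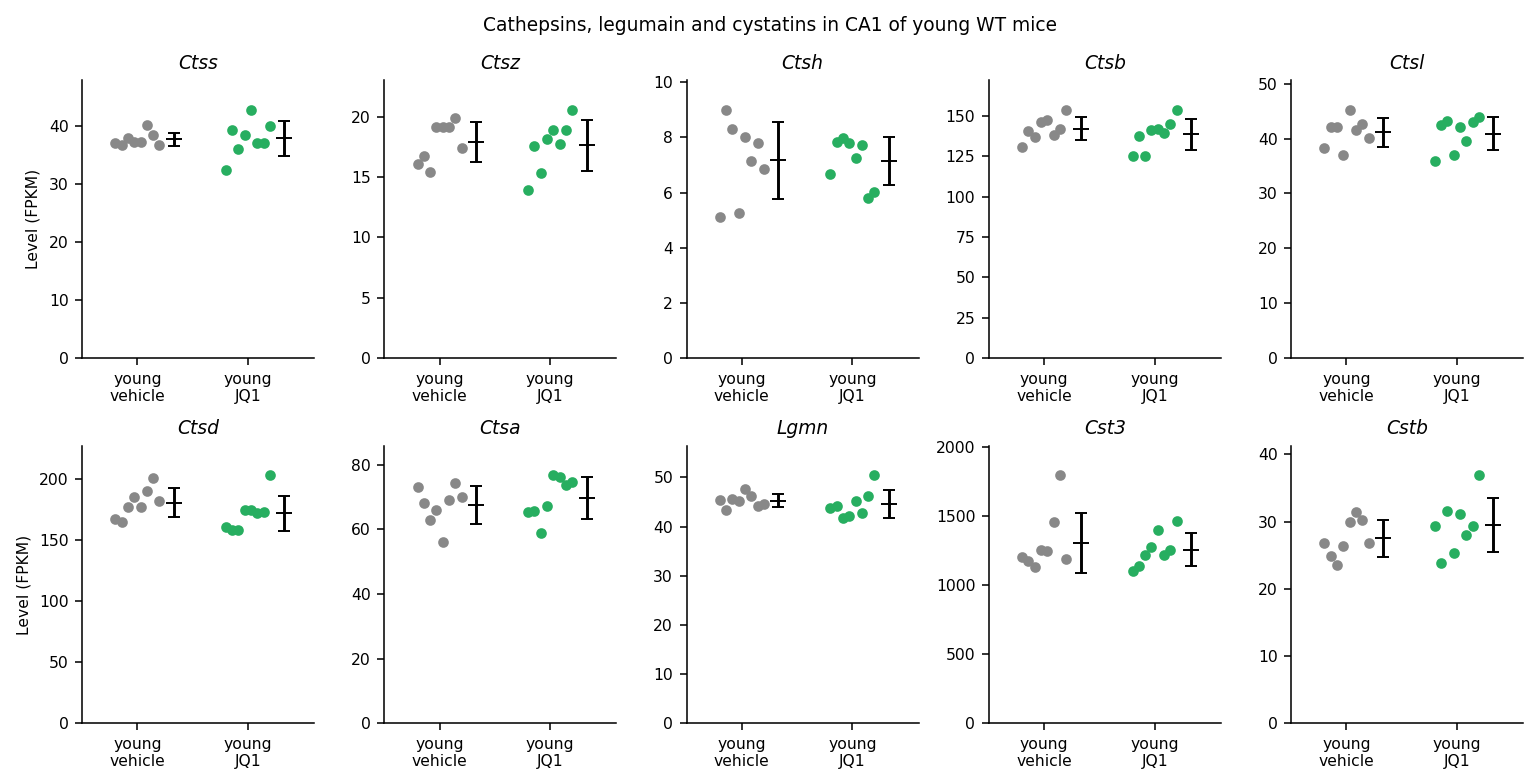
Level of each member in FPKM (y axis, from 0) in young WT mice given vehicle (grey, 8) or JQ1 (green, 8), with bars at the mean ± SD. The groups overlap for all 10 members, and Cst3 (1304 FPKM with vehicle) is far above the others.

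Other lysosomal genes were followed through fixed lists, chosen for function. Of 15 other cathepsins, 6 passed the filter in the aged mice. With all libraries 1 of them, Ctse, an aspartic protease of endosomes, was called higher in both comparisons with WT (2.49% and 1.93% of all genes tested). Without the library labelled APP JQ1 replicate 4, Ctsc was called higher in both as well (3.32% and 3.6% of all genes tested). The median log2 fold change of the 6 in APP vehicle against WT vehicle was 0.52, against 0.01 over all genes tested. Ctse stood at 0.211 to 0.783 CPM in WT, 6.01 to 44.8 CPM in APP vehicle and 0.133 CPM in the library labelled APP JQ1 replicate 4, against 15.2 to 33.4 CPM in the other JQ1 libraries. Of 18 further cystatins and related inhibitors, 7 passed, and Cst7, the inhibitor of cathepsins C and L known as cystatin F, was the 1 called higher, in both comparisons with WT (0 to 0.244 CPM in WT against 13.7 to 55.6 CPM in APP vehicle mice). The library labelled APP JQ1 replicate 4 had no read on Cst7. Both Ctse and Cst7 were low in every WT library, for Cst7 around the 3 reads taken as detectable. They entered the test through the APP libraries where they were high, so their calls depend on that filter and the size of change is unsure. Neither passed the filter in young mice. The median log2 fold changes of the 7 inhibitors, 0.55 and 3.83 in the comparisons with WT, were each the value of Fetub. That gene stood at 0.0422 to 1.20 CPM in WT mice and was not called (Fetub is named after its values were seen).

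Lysosomal hydrolases and their activators changed in part. Of 40 tested, 11 were called higher in APP vehicle against WT vehicle mice (2.49% of all genes tested). In APP JQ1 against WT vehicle mice 7 were called higher (1.93% of all genes tested). Without the library labelled APP JQ1 replicate 4, 14 were called higher in each, against 3.32% and 3.6% of all genes tested. None was lower, and the median log2 fold changes with all libraries were 0.32 and 0.25, against 0.01 and 0.00 over all genes tested. Log2 fold changes of APP vehicle against WT vehicle were 1.46 for Gusb, the beta-glucuronidase, 1.29 for Man2b1, the alpha-mannosidase, 1.23 for Grn, the progranulin gene, 1.11 for Hexa, a lysosomal glycosidase, and 1.07 for Npc2, a cholesterol carrier.

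Of 16 lysosomal membrane proteins, 2 were called higher in APP vehicle mice, against 2.49% of all genes tested. These were Cd68 (log2 fold change 2.57) and Laptm5 (2.03), both typical of phagocytes. Lamp2 was called as well in APP JQ1 against WT vehicle (0.63), where 1.93% of all genes tested were called higher. The medians of the list were 0.14 and 0.16, against 0.01 and 0.00 over all genes tested. In the edgeR fits none of 11 genes for the sorting of lysosomal enzymes was called in any aged comparison, with medians from -0.06 to 0.03. The same held for the 3 tested members of the Tfeb family, of 4 listed, with medians from -0.18 to 0.14. Tfeb itself was at 7.85 ± 1.66 CPM in WT, 12.4 ± 1.51 CPM in APP vehicle and 8.38 ± 2.07 CPM in APP JQ1 mice (SD, n = 4, 6 and 6), with adjusted p-values of 0.0784 for APP vehicle against WT vehicle and 0.0999 for JQ1 against vehicle (edgeR), and is named after its values were seen. In the edgeR and limma fits none of these lists had a gene called with JQ1 in APP mice or in young mice. The study's own analysis did list some of these genes as changed by JQ1 in APP mice: Tfeb and Gga1 as lower and Tmem106b as higher. It also listed Tfeb as higher in APP vehicle than in WT vehicle mice.

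Within groups most members varied together, and Cstb less so. Over the 45 pairs of members, the correlation of their deviations from the group means across the 16 aged libraries, on log2 CPM, had a median r of 0.81 and ran from -0.24 to 0.98, and without the library labelled APP JQ1 replicate 4 the median was 0.75. All points share their library and its depth, so these are descriptions. The pair with the highest r was Ctsd with Ctss (0.98, and 0.95 without that library). Over the 16 libraries, r was under 0 only for Cstb with Ctsa (-0.24), Ctsz (-0.14) and Ctsd (-0.05).

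For the 8 members called in APP vehicle against WT vehicle, the genes of the whole table most like them by that measure, over 16 libraries, were named by rank of r alone. Ctsd was most like Ctss, Cd68 and Gusb (r = 0.98, 0.98 and 0.98), Ctss most like Ctsd, Ptpn6 and C1qc (0.98, 0.97 and 0.97), and Ctsz most like Lat2, Spi1 and Cd68 (0.98, 0.98 and 0.97). Ctsh went with Tec, Milr1 and Lgals3 (0.94, 0.93 and 0.92), and Lgmn with Samsn1, Cd9 and Clic1 (0.96, 0.95 and 0.94). Ctsb was nearest to Lamp1, Anxa5 and C1qb (0.95, 0.94 and 0.93), Ctsa to Man2b1, Grn and Gpr37l1 (0.97, 0.97 and 0.97), and Cst3 to Rgs10, Tmem86a and Lamp1 (0.94, 0.94 and 0.92). Without the library labelled APP JQ1 replicate 4, r for these 24 pairs lay between 0.88 and 0.96, but some of the nearest genes changed. For Ctss, Ptpn6 and C1qc fell to ranks 11 and 9, with S100b and Ppt1 at ranks 2 and 3. Clic1 fell to rank 17 for Lgmn, Lgals3 to rank 13 for Ctsh and Lamp1 to rank 13 for Cst3. Ctsd and Ctss stayed nearest to each other.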

How the data were processed

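CA1 RNA was sequenced on a HiSeq2000. The authors aligned reads to mm10 with STAR, allowing 2 mismatches, and deposited counts per gene made with htseq, whole numbers without normalization. The deposited FPKM of the young mice came, by the authors' methods, from cufflinks/cuffdiff, scaled to transcript length and depth. They hold no read numbers, so the depth of the young libraries is unknown. The submitters' notes also name TopHat and CASAVA 1.8.2. Other versions are not given in the sources used here, and strand use in counting is not stated: exons of Ctsb, Ctsz, Ctsa, Ctsd and Ctsl overlap those of other genes on either strand, so their reads cannot be fully assigned.

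Groups came from the labels. The 5 lines that name no gene were left out (15.4% to 26.9% of reads lay outside genes, 1.51% to 1.93% were ambiguous). Symbols came from GENCODE M21. Counts were tested in edgeR 4.0.16 (TMM, filterByExpr, quasi-likelihood, robust) in 1 fit of 16 libraries and 3 groups. FPKM were tested in limma 3.58.1 (trend, robust) on log2(FPKM + 0.1) for loci with at least 0.5 FPKM in at least 8 of 16 samples. An adjusted p (Benjamini-Hochberg over all features) under 0.05 was called. CPM are TMM-scaled. Exact two-sided permutation tests used log2(CPM + 0.5). Alternatives were RLE, no filter, DESeq2 1.42.0, fits of 2 groups, a replicate block, the share of reads outside genes as covariate, GC content and length offsets, other pseudocounts, rescaled FPKM, and leaving out each library. Fits were tested on simulated data. R 4.3.3, Python 3.11.15 and scipy 1.17.1 were used.

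The members and lists were chosen with earlier results of these data known. Named from the lists were genes past the threshold in at least 1 comparison, at most the 6 with the largest change in a list, and for each member called in APP vehicle against WT vehicle the 3 genes with the highest r. Samples are separate samples by their titles, so p-values measure the spread between these samples. Some genes are not reported here. Protein sequences were not used here.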

Additional observations from a re-analysis of the deposited data

Results flagged for a closer look

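Among 60 sets of 1 gene in 1 group, 4 held a library whose gap to its nearest neighbour was large for the range of the group (Dixon's criterion), and chance alone flags about 1 in 20 groups, so a few such cases say little on their own. WT vehicle replicate 1 was high for Ctsh (20.7 CPM, the other 3 between 12.3 and 13.3 CPM) and for Cst3 (1362 CPM, the others between 1122 and 1162 CPM), and it had the highest level of its group for 7 of 10 members. Young JQ1 replicate 8 was high for Ctsd (202.8 FPKM, the others between 157.9 and 174.7 FPKM). The library labelled APP JQ1 replicate 4 was low for Thy1 (819.8 CPM, the others between 1618 and 2070 CPM), and it was the lowest of its group for 9 of 10 members.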

How the results depend on the processing

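All 10 members stayed higher in both comparisons of APP with WT under every alternative, whereas the number called changed. For APP vehicle against WT vehicle, 8 members became 3 to 9 when 1 library was left out at a time (3 without WT vehicle replicate 3, 4 without replicate 4 and 4 without replicate 5), and 9 with DESeq2. For APP JQ1 against WT vehicle, 6 became 0 to 9 when 1 library was left out: 0 without WT vehicle replicate 3, 4 or 5, 1 without APP JQ1 replicate 1 or 2, 2 without APP JQ1 replicate 6 or WT vehicle replicate 1, and 9 without the library labelled APP JQ1 replicate 4. It became 3 without a filter (0.86% of all genes called), 2 with only the groups compared (1.39%), 0 with the share of reads outside genes as a covariate (0.66%) and 8 with DESeq2 (4.43%), against 2.06% in the reported fit. The cause was not tested. JQ1 against vehicle had 0 members called under every alternative in APP and in young mice.

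With the replicate number as a block, 0 members were called in both comparisons with WT (0.206% and 0.124% of all genes were), and 0 with the block and a GC content and length offset. The labels do not say that numbers mark shared mice or days, and not every same-numbered pair deviated together (3 of 6 correlations over 0.1 between the APP groups, where r averaged 0.124 for equal and -0.0207 for unequal numbers, 0 of 4 between APP vehicle and WT vehicle, 1 of 4 between APP JQ1 and WT vehicle, 1 of 8 in the young mice), so the numbers were not taken as pairs.

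Signs turned for JQ1 against vehicle in APP mice, for log2 fold changes never called. Ctsl turned to -0.010 with the block, -0.113 with the GC content and length offset and -0.125 with both, and ran from -0.082 to 0.092 when 1 library was left out. Cst3 turned to 0.080 with the offset and 0.068 with offset and block (-0.177 to 0.0070 when 1 library was left out), and Cstb to 0.108 with the covariate (-0.15 to 0.063). Lgmn ran from -0.13 to 0.019 when 1 library was left out. In young mice, leaving out 1 library turned Ctsz (-0.057 to 0.023), Ctsl (-0.031 to 0.017), Ctss (-0.023 to 0.034), Ctsh (-0.057 to 0.057) and Cst3 (-0.075 to 0.024).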
